A study of Saccharomyces cerevisiae with 2 samples.

Results

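The Hsp70 family of *Saccharomyces cerevisiae* was followed here in the transcripts of the bioethanol strain ZK2 and of the laboratory strain BYZ1. The 10 genes were picked by their names: the cytosolic Hsp70 genes *SSA1*, *SSA2*, *SSA3* and *SSA4*, the ribosome-bound Hsp70 genes *SSB1*, *SSB2* and *SSZ1*, the Hsp110 genes *SSE1* and *SSE2*, and *FES1*, which encodes another exchange factor of Hsp70. They were 10 of the 5699 genes listed in at least 1 of the 2 deposited tables, and all 10 were listed in both. The study sequenced poly(A) RNA, with 1 library for each strain. Its methods put the harvest in early stationary phase but do not name ZK2, so that phase is not assumed for ZK2. ZK2 is known here only as a bioethanol strain, grown by its label in a medium of yeast extract (10 g/L) with peptone (20 g/L) and glucose (20 g/L), and its genotype was not given in the sources used here. BYZ1 is a MATa/MATalpha diploid from a cross of BY4741 with BY4742, both S288c-derived, and carries his3delta1, leu2delta0 and ura3delta0 on both homologs and lys2delta0 and met15delta0 on 1 homolog. Its label puts the same ingredients at 1, 2 and 2 g/L, whereas the methods of the study put them at 10, 20 and 20 g/L. The strain, the labelled medium, the growth phase at harvest, any difference in read processing and the single library cannot be told apart in any difference between ZK2 and BYZ1.

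Hsp70 proteins bind short hydrophobic stretches of other proteins and let go of them in a cycle of ATP binding and hydrolysis. J-domain partners start the hydrolysis, and exchange factors such as the Hsp110 proteins and Fes1 release the bound ADP so that the cycle can begin again. In yeast *SSA1* and *SSA2* are known as the genes active in growing cells and *SSA3* and *SSA4* as stress-inducible ones, whereas the Ssb proteins sit at the ribosome and meet the chains as they are made.

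The libraries held 4.57 M uniquely mapped reads over 5605 genes in ZK2 and 4.69 M over 5671 genes in BYZ1 (M, 1e6 reads). Genes with a deletion allele on both homologs of BYZ1 served as a check of the label. *URA3* had 123 reads in ZK2 and 0 in BYZ1 (3 reads, the limit that such a count allows, would be an RPKM of 0.796), and *LEU2* had 360 reads in ZK2 and 1 in BYZ1. *HIS3* had 159 reads over 98.9% of its length in ZK2 and 156 reads over 67.4% in BYZ1, so reads of it were present in both. Levels are given as RPKM, the reads per kilobase of coding length and per M reads, with exact Poisson 95% intervals. Ratios of ZK2 to BYZ1 carry exact conditional binomial (Clopper-Pearson) 95% intervals. Both kinds of interval cover the counting of reads only, since there was no second library of either strain to show the spread between cultures, and no test between the strains could be had.

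The genes lie apart in the genome. In R64 *SSA1* (YAL005C) is at chr1:139503-141431, *SSA2* (YLL024C) at chr12:95566-97485, *SSA3* (YBL075C) at chr2:84499-86448 and *SSA4* (YER103W) at chr5:364589-366517. *SSB1* (YDL229W) is at chr4:44065-45906, *SSB2* (YNL209W) at chr14:252059-253900 and *SSZ1* (YHR064C) at chr8:225525-227141. *SSE1* (YPL106C) is at chr16:350194-352275, *SSE2* (YBR169C) at chr2:573915-575996 and *FES1* (YBR101C) at chr2:443821-444693. These are the ends of the coding sequences, and whether other annotated sequences overlap them was not tested.

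Within the family the near-identical pairs limit what unique reads can show. *SSA1* and *SSA2* were identical at 96.4% of aligned coding positions in the R64 reference, with 61 differing bases, and *SSB1* and *SSB2* at 97.5%, with 42 differing bases. A read counts as unique only if it spans such a difference. The stretch of 100 coding bases with the most differences in each pair shows where those reads can come from, with the differing bases in capitals. The 5′ ends of the *SSA1* and *SSA2* stretches are at coding base 153, on the minus strand of chr1:141180-141279 and chr12:97234-97333. Those of *SSB1* and *SSB2* are at coding base 48, on the plus strand of chr4:44112-44211 and chr14:252106-252205.
SSA1: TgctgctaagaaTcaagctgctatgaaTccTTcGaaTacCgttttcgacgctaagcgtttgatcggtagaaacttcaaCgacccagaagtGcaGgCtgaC
SSA2: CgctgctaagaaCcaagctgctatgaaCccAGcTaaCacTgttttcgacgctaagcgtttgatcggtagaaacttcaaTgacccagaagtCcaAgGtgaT
SSB1: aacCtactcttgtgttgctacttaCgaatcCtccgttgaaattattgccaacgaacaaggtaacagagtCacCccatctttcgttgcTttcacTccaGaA
SSB2: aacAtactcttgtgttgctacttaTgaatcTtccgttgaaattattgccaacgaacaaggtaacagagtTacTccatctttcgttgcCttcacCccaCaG

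The *SSA1* and *SSA2* stretches differ at 13 of these 100 bases, and the *SSB1* and *SSB2* stretches at 9. Elsewhere the pairs ran identically over up to 383 bases (*SSA1* and *SSA2*) and 563 bases (*SSB1* and *SSB2*), far beyond the 49 bases taken here as the length of a read. The methods of the study state no read length, and that of the ZK2 library was not given in the sources used here. The other members were distant enough to be counted along their whole length. *SSA3* and *SSA4* were identical at 76.6% of aligned positions, *SSE1* and *SSE2* at 72.8%, and *SSA1* and *SSE1* at 53.5%.

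The deposited coverage, the percent of the coding length under at least 1 read, showed the same division. *SSB1* was covered over 69.1% of its length in ZK2 and 68.2% in BYZ1, and *SSB2* over 69.0% in ZK2 and 68.8% in BYZ1. In R64, windows of 49 bases without a second exact match in the genome span 69.3% of either gene, so coverage stopped close to what uniqueness allows in both strains. Windows that stay unique with 2 mismatches allowed span 35.1%, less than was covered. *SSA1* was covered over 48.1% in ZK2 and 48.2% in BYZ1, below the 55.8% that exact windows span. *SSA2* was covered over 43.6% in ZK2 and 52.7% in BYZ1, against 55.6%. The 6 remaining members were covered over 96.7% or more of their length in each strain.

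**Figure D1:**
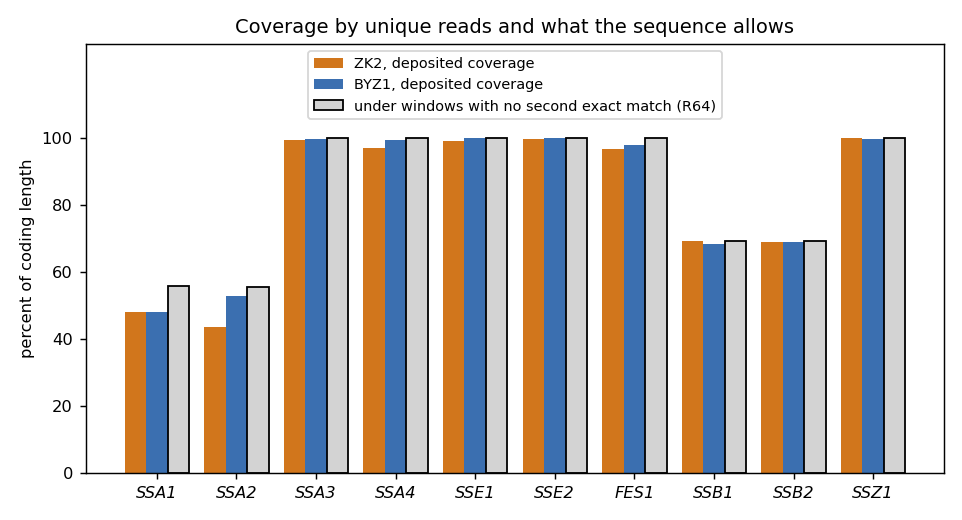
Percent of the coding length covered by reads for each of the 10 genes in ZK2 and BYZ1 (colored bars), beside the percent spanned by 49-base windows without a second exact match in R64 (grey bars). *SSA1*, *SSA2*, *SSB1* and *SSB2* lie between 43.6% and 69.1%, and the other genes at 96.7% or more.

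All 10 genes passed the filter on low values, an RPKM of at least 10 in either strain, as did 5080 genes in all. A gene was called higher or lower in ZK2 where its log2 ratio reached 1 in either direction, computed with a pseudocount of 1 RPKM, which shrinks the ratios of low genes. Of the 10 genes 2 were called higher in ZK2 (*SSB1* and *SSB2*), beside 7.91% of all 5080 genes. A further 4 were called lower (*SSA3*, *SSA4*, *SSE1* and *FES1*), beside 10.3% of all genes. The remaining 4, *SSA1*, *SSA2*, *SSE2* and *SSZ1*, passed neither threshold. The median log2 ratio of the 10 genes was −0.42 and that of all genes −0.17, so a gene at the centre of the comparison already lay slightly below 0.

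**Figure D2:**
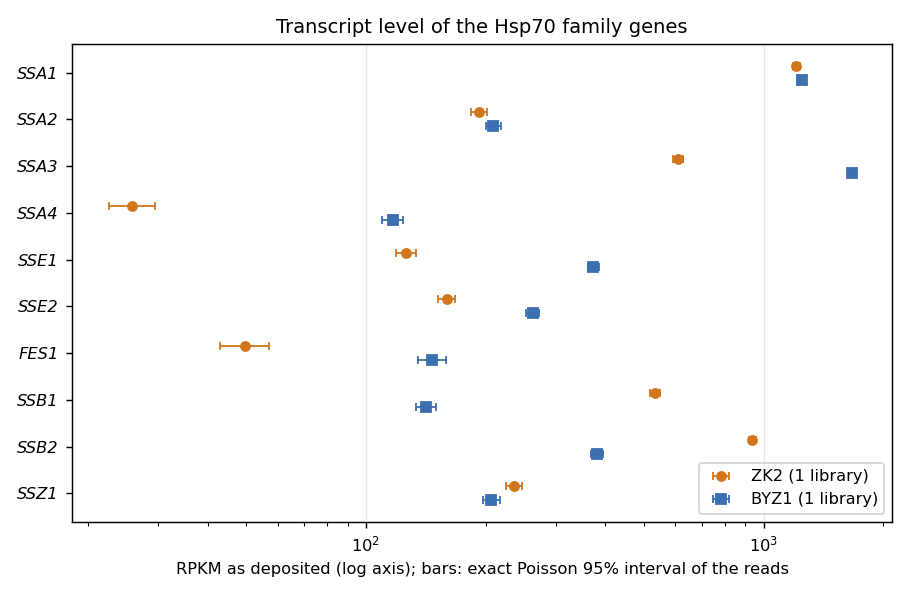
RPKM of the 10 genes in ZK2 and BYZ1 on a log axis, with exact Poisson 95% intervals of the read counts (1 library per strain). *SSB1* and *SSB2* are higher in ZK2, and *SSA3*, *SSA4*, *SSE1* and *FES1* lower.

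*SSA1* and *SSA2*, the cytosolic Hsp70 genes of growing cells, were at nearly the same level in both strains. *SSA1* had an RPKM of 1208 (1185 to 1231) in ZK2 and 1252 (1229 to 1275) in BYZ1, a ratio of 0.965 (0.940 to 0.991). *SSA2* had an RPKM of 193 (184 to 202) in ZK2 and 209 (200 to 219) in BYZ1, a ratio of 0.920 (0.861 to 0.983). Their log2 ratios of −0.05 and −0.12 lay close to the median of all genes, at percentiles 57.5 and 53.3 of the 5080 ratios. The unique reads of *SSA1* outnumbered those of *SSA2* per unit of length in each strain, by 6.27 times (5.96 to 6.60) in ZK2 and 5.98 times (5.69 to 6.28) in BYZ1. Summed over the pair, 12344 reads in ZK2 and 13201 in BYZ1 gave a ratio of 0.959 (0.935 to 0.983), which reads swapped between the 2 genes could not alter. Reads that gain or lose uniqueness could alter it, and *SSA2* was covered over 43.6% in ZK2 and 52.7% in BYZ1. Whether bases of ZK2 changed which of these reads were unique was not tested.

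The stress-inducible *SSA3* and *SSA4* were both lower in ZK2. *SSA3* had 5427 reads in ZK2 and 15276 in BYZ1. These gave an RPKM of 609 (593 to 625) in ZK2 and 1671 (1645 to 1698) in BYZ1, a ratio of 0.364 (0.353 to 0.376) and a log2 ratio of −1.46. *SSA4*, which had the lowest ratio of the family, had 228 reads and an RPKM of 25.9 (22.6 to 29.4) in ZK2 and 1058 reads and an RPKM of 117 (110 to 124) in BYZ1. The *SSA4* ratio was 0.221 (0.191 to 0.255), a level 4.53 times higher in BYZ1. Its log2 ratio of −2.14 was at percentile 1.40 of all genes, with 71 genes lower. *SSA3* lay at percentile 3.50. In both strains *SSA4* stood far below *SSA3*, at 0.0425 (0.0370 to 0.0485) of its level in ZK2 and 0.0700 (0.0657 to 0.0745) in BYZ1. The intervals of that within-strain ratio did not overlap, so by counting error alone *SSA4* was low in ZK2 even beside *SSA3*.

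The 4 *SSA* genes together had 17999 unique reads in ZK2 and 29535 in BYZ1, a ratio of 0.625 (0.613 to 0.637), and most of the shortfall lay in *SSA3* and *SSA4*. Non-unique reads of *SSA1* and *SSA2* are left out, which weights that ratio toward *SSA3* and *SSA4*. *SSA3* supplied 30.2% of the reads of the 4 genes in ZK2 and 51.7% in BYZ1. By deposited RPKM *SSA3* was below *SSA1* in ZK2 (0.504 times) and above it in BYZ1 (1.34 times). That order in BYZ1 depends on how length is counted. *SSA1* has unique windows over only 41.9% of its start positions, and with reads divided by those windows *SSA3* was at 0.211 of *SSA1* in ZK2 and 0.559 in BYZ1 (0.142 in ZK2 and 0.376 in BYZ1 with 2 mismatches allowed). The values in brackets run low, because reads covered more of *SSA1* than windows unique with 2 mismatches span.

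The exchange factors came next. Hsp110 proteins are distant relatives of Hsp70 that act on it by releasing ADP, and *SSE1* is the form of growing cells while *SSE2* is the stress-inducible one. *SSE1* had 1203 reads in ZK2 and 3644 in BYZ1, with an RPKM of 126 (119 to 134) in ZK2 and 373 (361 to 386) in BYZ1. Its ratio was 0.339 (0.317 to 0.361) and its log2 ratio −1.56, at percentile 2.93. *SSE2* had an RPKM of 160 (152 to 168) in ZK2 and 262 (252 to 273) in BYZ1. The *SSE2* ratio of 0.609 (0.571 to 0.649) and log2 ratio of −0.71 were in the same direction as those of *SSE1* and did not reach the threshold, which *SSE2* passed with *ACT1* as the scale (−1.13). The order of this pair was reversed between the strains: *SSE1* was at 0.791 (0.733 to 0.854) of the *SSE2* level in ZK2 and at 1.42 (1.352 to 1.497) of it in BYZ1. Reads of both genes were counted along nearly their whole length, at a coverage of 99.0% or more.

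*FES1*, which encodes an exchange factor unrelated to Hsp110 in structure, had 198 reads and an RPKM of 49.6 (42.9 to 57.0) in ZK2, and 599 reads and an RPKM of 146 (135 to 159) in BYZ1. Its ratio of 0.339 (0.287 to 0.399) had the same value as that of *SSE1*, and its log2 ratio was −1.54. *FES1* stood at 0.393 of the *SSE1* level in ZK2 and 0.392 in BYZ1. The 3 exchange factor genes together had 2921 reads in ZK2 and 6804 in BYZ1, a ratio of 0.440, lower than the 0.625 of the unique reads of the 4 *SSA* genes. The latter value leaves out the non-unique reads of *SSA1* and *SSA2*, so the size of the gap depends on how reads are counted.

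The ribosome-bound *SSB1* and *SSB2* differed in the other direction. Ssb proteins bind nascent chains at the tunnel exit, helped by the ribosome-associated complex of Ssz1 and the J-domain protein Zuo1. *SSB1* had 4483 reads in ZK2 and 1224 in BYZ1, with an RPKM of 532 (517 to 548) in ZK2 and 142 (134 to 150) in BYZ1. *SSB2* had 7890 reads in ZK2 and 3295 in BYZ1, with an RPKM of 937 (917 to 958) in ZK2 and 382 (369 to 395) in BYZ1. The ratio was 3.76 (3.525 to 4.004) for *SSB1* and 2.46 (2.36 to 2.56) for *SSB2*. Their log2 ratios of 1.90 and 1.29 were at percentiles 97.8 and 95.1 of all genes, and 111 genes had a higher ratio than *SSB1*. With *ACT1* as the scale *SSB2* was at 0.87 and was not called, and *SSB1* was at 1.48.

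Only unique reads enter these counts, and the genes differ at few bases, so a read can be assigned to the wrong gene of the pair where a strain carries other bases than the reference. The sum over both genes does not depend on that assignment. It was 12373 reads in ZK2 and 4519 in BYZ1, a ratio of 2.81 (2.71 to 2.91). Within the pair, *SSB1* was at 0.568 (0.548 to 0.589) of the *SSB2* level in ZK2 and 0.371 (0.348 to 0.397) in BYZ1, and this split between the genes is the less certain measure. Whether bases of ZK2 that differ from the reference change which reads were unique was not tested.

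*SSZ1*, whose product is an atypical Hsp70 that works with Zuo1, was not called. It had an RPKM of 236 (225 to 247) in ZK2 and 207 (197 to 217) in BYZ1, a ratio of 1.14 (1.06 to 1.22) and a log2 ratio of 0.19. *ZUO1* was at 165 RPKM in ZK2 and 226 in BYZ1, with a log2 ratio of −0.46. The *SSB* genes were thus high in ZK2 without a similar difference in either gene of the complex. *SSB2* stood at 3.97 times the level of *SSZ1* in ZK2 and 1.84 times in BYZ1 by deposited RPKM, at 7.03 times in ZK2 and 3.27 times in BYZ1 per exact unique window, and at 21.9 times in ZK2 and 10.2 times in BYZ1 per window unique with 2 mismatches. The excess of *SSB2* over *SSZ1* thus has no firm size. It was higher in ZK2 by deposited RPKM. The window scales could not change that, because the same window counts were used for both strains. The nascent polypeptide-associated complex genes *EGD1* and *EGD2* had log2 ratios of −0.23 and −0.40, and *JJJ1*, a J-domain gene of ribosome assembly, −0.35. *BTT1*, which encodes another subunit of that nascent-chain complex, was under the filter with 11 reads in ZK2 and 15 in BYZ1. Genes of ribosomal proteins, which share the ribosome with Ssb, had a median log2 ratio of −0.16 over 132 genes. Of these, 5 (3.79%) were called higher and 9 (6.82%) lower, below the 7.91% and 10.3% of all genes. How much of their length unique reads can reach was not tested.

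**Figure D3:**
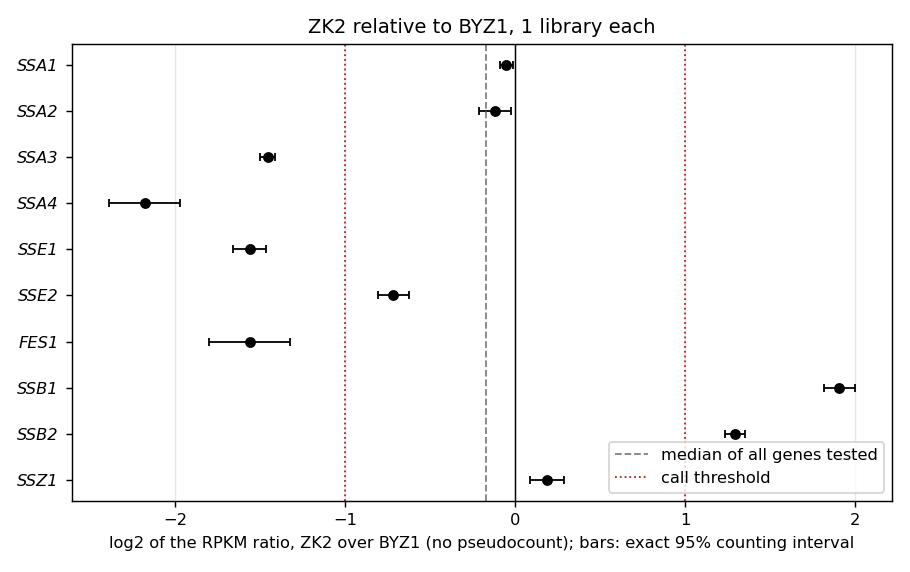
Ratio of ZK2 to BYZ1 for each of the 10 genes on a log2 axis, with exact binomial 95% intervals, beside lines at the median of all genes and at the thresholds. *SSB1* (3.76) and *SSB2* (2.46) stand on the high side, and *SSA4* (0.221) is the lowest.

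The levels can be put in order within each strain. By deposited RPKM the order in ZK2 was *SSA1*, *SSB2*, *SSA3*, *SSB1*, *SSZ1*, *SSA2*, *SSE2*, *SSE1*, *FES1* and *SSA4*, and no neighbours had overlapping counting intervals. In BYZ1 it was *SSA3*, *SSA1*, *SSB2*, *SSE1*, *SSE2*, *SSA2*, *SSZ1*, *FES1*, *SSB1* and *SSA4*. There the intervals of *SSB2* and *SSE1*, of *SSA2* and *SSZ1*, and of *FES1* and *SSB1* overlapped, so these pairs have no order. RPKM understates the 4 near-identical genes, whose non-unique reads were not counted. Per exact unique window *SSA1* was at 2884 in ZK2 and 2988 in BYZ1, *SSB2* at 1666 in ZK2 and 679 in BYZ1, and *SSB1* at 947 in ZK2 and 252 in BYZ1, on the scale of RPKM. On that scale *SSA1* was the highest of the 10 genes in both strains. Windows unique with 2 mismatches allowed put *SSB2* at 5189 in ZK2 and 2113 in BYZ1, and *SSA1* at 4288 in ZK2 and 4442 in BYZ1, so the order of these genes in ZK2 depends on how uniqueness is counted.

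As a share of all gene reads the 10 genes took 0.766% (0.759% to 0.775%) in ZK2 and 0.905% (0.897% to 0.914%) in BYZ1, with exact binomial intervals. The summed unique reads of the family thus differed less between the strains than most of its single members, at a ratio of 0.847 (0.835 to 0.859). That sum leaves out the non-unique reads of *SSA1*, *SSA2*, *SSB1* and *SSB2*. Its ratio therefore depends on how those genes are weighted and has no firm size or direction for the transcripts of the family. The makeup of the unique reads differed more. *SSA3* supplied 15.5% of the family reads in ZK2 and 36.0% in BYZ1, *SSB2* 22.5% in ZK2 and 7.77% in BYZ1, and *SSB1* 12.8% in ZK2 and 2.89% in BYZ1. These are shares of unique reads and not of transcripts. Exact unique windows start at 100% of the positions of *SSA3*, but at only 56.2% of those of *SSB1* and *SSB2* and 41.9% of those of *SSA1*.

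Other chaperone genes give the setting for these values. Of the 22 J-domain partners listed, 20 passed the filter, with a median log2 ratio of −0.62. Of these, 4 (20%) were called lower in ZK2 and 0 higher, beside 10.3% lower and 7.91% higher over all 5080 genes. *XDJ1* (−1.23) and *JEM1* (−1.22, endoplasmic reticulum) were the lowest and *SEC63* (0.31, protein translocation) and *PAM18* (0.25, mitochondrial import) the highest. The other 2 called lower, named after their values were seen, were the main cytosolic partners of the Ssa proteins. *YDJ1* had an RPKM of 52.6 in ZK2 and 112 in BYZ1, and *SIS1* 115 in ZK2 and 252 in BYZ1. Their log2 ratios were −1.07 and −1.12, but relative to the median of all genes they were −0.90 and −0.95, short of the threshold. With TMM or median scaling 2 J-domain genes were called lower, beside 345 of all 5080 genes with TMM and 348 with the median.

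The Hsp70 genes of the organelles were lower or near the centre. Of 8 genes 2 (25%) were called lower, beside 10.3% of all genes, and 0 higher, with a median of −0.47. *ECM10*, a mitochondrial Hsp70 gene, had a log2 ratio of −1.77 and *LHS1*, an Hsp70-like exchange factor of the endoplasmic reticulum, −1.10 (−0.93 relative to the median of all genes). The main mitochondrial gene *SSC1* was at −0.25 and its exchange factor *MGE1* at 0.31.

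Hsp90 takes clients over from Hsp70 with the help of Sti1. Of 12 genes of Hsp90 and its co-chaperones 11 passed the filter, with a median of −0.61. Of these, 5 (45.5%) were called lower, beside 10.3% of all genes, and 0 higher. Only 2 were called lower with TMM scaling, beside 345 of all 5080 genes, and 3 with median scaling, beside 348. *STI1*, which joins Hsp70 to Hsp90, had an RPKM of 231 in ZK2 and 715 in BYZ1, a log2 ratio of −1.63. *CPR6*, a prolyl isomerase partner, was the lowest at −1.97, while *CPR7* (0.27) and *SBA1* (0.05) were the highest.

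The disaggregase and small heat-shock genes had a median of −0.72, with 3 of 9 (33.3%) called lower, beside 10.3% of all genes, and 0 higher. *HSP26*, a small heat-shock gene, had an RPKM of 2026 in ZK2 and 17553 in BYZ1, a log2 ratio of −3.11, and *HSP42*, another, had −1.91. *HSP31* (0.49) and *HSP30* (0.11, a heat-shock protein gene of the plasma membrane) were the highest. *HSP104*, the disaggregase that works with Hsp70 and is named after its values were seen, had an RPKM of 622 in ZK2 and 1026 in BYZ1, a log2 ratio of −0.72. Among 15 genes of the general stress response 3 (20%) were called lower and 1 (6.67%) higher, with a median of −0.36. The shares over all genes were 10.3% and 7.91%. *CTT1*, the cytosolic catalase gene, was at −2.97, *GRE1* at −1.97, *SPI1* at 1.42 and *HOR7* at 0.40.

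**Figure D4:**
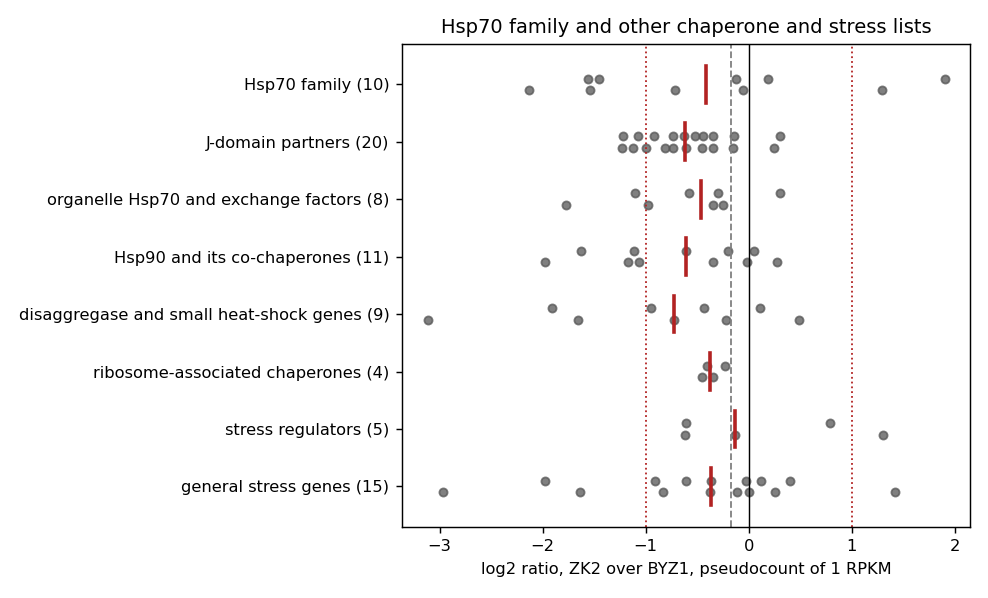
Log2 ratio of ZK2 to BYZ1 for each gene of the Hsp70 family and of the related lists that passed the filter (points), with each list's median and the median of all genes (−0.17). The *SSB* genes stand above every gene of the J-domain, organelle, Hsp90 and small heat-shock lists.

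Transcripts of the regulators were compared too. *HSF1*, which encodes the heat-shock transcription factor, had an RPKM of 69.9 in ZK2 and 107 in BYZ1, a log2 ratio of −0.61. *MSN4*, which encodes an activator of the general stress response, was called higher, at 115 in ZK2 and 46.1 in BYZ1 (log2 ratio 1.30). Its relative *MSN2* was at 0.79, below the threshold, and *YAP1* and *SKN7*, of the oxidative stress response, were at −0.14 and −0.62. Transcript level says nothing of the activity of these proteins.

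Hsf1 binds inverted repeats of GAA, the heat-shock element, and Msn2 and Msn4 bind AGGGG, the stress response element. The window 400 to 101 bases before the start codon was searched in R64 for 9 of the 10 genes (*SSE1* was left out). The search covered both strands, for an element of 3 units (GAANNTTCNNGAA or TTCNNGAANNTTC), one of 2 units (GAANNTTC or TTCNNGAA, which every 3-unit match also contains) and AGGGG or CCCCT. Stretches of 150 bases, 280 to 131 before the start codon, are given for *SSA4* and *FES1*, the genes called lower in which a match was found, and for *SSA1* and *SSA2*, which differed little, with the matches in capitals. *SSA4* is on the plus strand of chr5:364309-364458, and on the minus strand *FES1* is at chr2:444824-444973, *SSA1* at chr1:141562-141711 and *SSA2* at chr12:97616-97765.
SSA4: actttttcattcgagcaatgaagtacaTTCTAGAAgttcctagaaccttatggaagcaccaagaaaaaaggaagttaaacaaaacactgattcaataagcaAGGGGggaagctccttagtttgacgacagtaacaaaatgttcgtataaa
FES1: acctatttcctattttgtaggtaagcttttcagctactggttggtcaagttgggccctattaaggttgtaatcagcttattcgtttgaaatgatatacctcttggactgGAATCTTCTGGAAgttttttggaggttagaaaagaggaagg
SSA1: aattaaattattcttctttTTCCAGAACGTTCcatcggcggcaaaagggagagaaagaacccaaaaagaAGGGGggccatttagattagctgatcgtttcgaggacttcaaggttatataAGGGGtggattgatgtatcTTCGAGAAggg
SSA2: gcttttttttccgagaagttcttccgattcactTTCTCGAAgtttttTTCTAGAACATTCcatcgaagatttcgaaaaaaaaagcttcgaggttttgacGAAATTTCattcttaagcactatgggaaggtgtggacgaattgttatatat

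The 3-unit heat-shock element was found before 3 of the 9 genes, *SSA1*, *SSA2* and *FES1*, against 66 of 6007 gene windows of the same length (1.10%). Of these 3, *FES1* was called lower in ZK2 and *SSA1* and *SSA2* were near a ratio of 1, so a match went with no single direction. The 2-unit form was found before 5 of the 9, *SSA4* and *SSE2* being the others, and in 23.6% of all windows. AGGGG or its complement was found before 3 of the 9 (*SSA1*, *SSA4* and *SSE2*), and likewise in 23.6% of all windows. No match was found before *SSA3*, *SSB1*, *SSB2* or *SSZ1*, which says only that these letters are not in this window of the reference. The upstream bases of ZK2 itself were not analysed here.

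**Figure D5:**
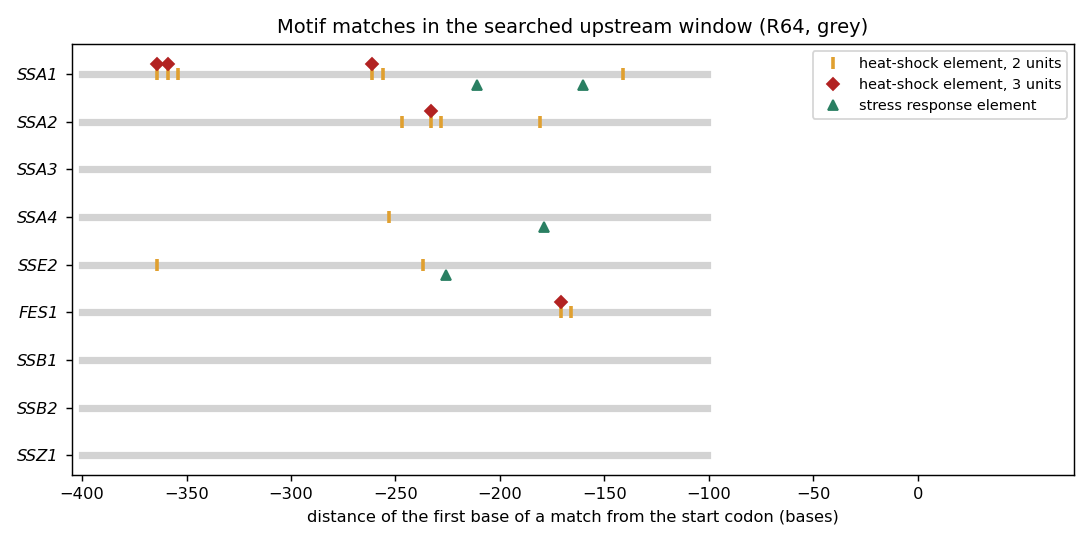
Motif matches in the searched window of each of the 9 genes in R64, plotted by the distance in bases of their first base from the start codon (grey bar, window searched). Matches of 3 units occur before *SSA1*, *SSA2* and *FES1*, and none of the motifs before *SSA3*, *SSB1*, *SSB2* or *SSZ1*.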

How the data were processed

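Poly(A) RNA of 1 library per strain was sequenced on an Illumina HiSeq, and by the methods of the study, which do not name ZK2, RNA of 3 cultures went into a sample. Reads with adapters, or in which over 50% of bases had a quality no higher than 5, were removed by the authors. The others were aligned with SOAPAligner at up to 2 mismatches. This is stated for BYZ1. The version of SOAPAligner and the aligner used for ZK2 are not given in the sources used here. The submitters' processing notes name the build sacCer 2. The deposited read counts are uniquely mapped reads per gene without strand. The deposited RPKM is that count per kilobase of coding length and per M (1e6) gene reads, and the deposited coverage is a percent of the coding length, both computed by the authors.

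The log2 ratio of ZK2 to BYZ1 was computed after adding 1 to each RPKM, for the 5080 genes that reached an RPKM of 10 in either library. Median depth was 204 reads per gene in ZK2 and 230 in BYZ1. Intervals were computed with scipy 1.17.1 at 95% and TMM factors with edgeR 4.0.16. Sequences, positions, 49-base unique windows (a read length taken from the bases and reads that the study lists for BYZ1) and motifs come from RefSeq R64, in which 5693 of the 5699 identifiers were found. The steps were tested on simulated data. Alternatives were the TMM factor, the median ratio or *ACT1* as the scale, totals without the top 10 genes, pseudocounts of 0.1 and 5, no filter, an RPKM of 50 as the filter, and unique windows. Exact windows and summed pairs were added after the data were seen.

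The 10 genes and the gene lists were chosen with earlier results of these data known. Beside the 10 genes and the strain check, the 2 highest and 2 lowest ratios of each list are named, and all genes of a list of 5 or fewer. *ZUO1* and *JJJ1* are in 2 lists. The upstream bases of *SSE1* are not reported here.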

Additional observations from a re-analysis of the deposited data

How the results depend on the processing

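Of 227 recomputed values 161 kept their call or stayed within a set tolerance of their value and 64 moved, 1 call was gained and 1 lost, and none reversed its call. A count or median could thus change a little and still be among the 161. One such count was that of members called lower with *ACT1* as the scale, 5 in place of 4. Part of the 161 could not have changed. Window counting leaves the levels of genes with only unique windows as they were. The same holds for the ratios of *SSB1* to *SSB2* and of *SSE1* to *SSE2* within a strain. Calls of the 10 genes changed only under *ACT1* as the scale, where *SSB2* had a log2 ratio of 0.87, leaving 1 gene of the family called higher, and *SSE2* had −1.13. *SSA1* (−0.47 to 0.12), *SSA2* (−0.54 to 0.06) and *SSZ1* (−0.23 to 0.36) changed sign over the alternatives and have no firm direction. *SSB1* stayed between 1.48 and 2.08 and *SSA4* between −2.54 and −1.96. TMM scaling moved all ratios by 0.18 and *ACT1* by −0.42, and the share of higher among all calls was 43.4% as reported, 60.8% with TMM and 13.6% with *ACT1*. Calls of the other lists were also lost. With TMM 2 of the 11 Hsp90 genes were called lower (3 with the median ratio as the scale), in place of 5, and under either scale 1 of the 8 organelle genes, in place of 2, and 2 J-domain genes, in place of 4. Over all 5080 genes 345 were called lower with TMM and 348 with the median ratio, in place of 524. Among all genes *ACT1* scaling called 203 higher and 1285 lower, and the RPKM filter of 50 called 283 and 274. No paired analysis was possible because each strain has 1 library, so the spread between cultures is unknown.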
